A study of Danio rerio with 4 samples.

Results

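The stage comparison within wild-type zebrafish larvae sets the library of sorted hepatocytes at 7.5 days post fertilization (dpf) beside the library at 5.5 dpf. The genes described are those with at least 10 CPM (reads scaled to the total of the library) in both libraries, which were 3747 of the 13572 genes that the deposited stage table lists and of the 33737 genes in the deposited table of RPKM values (reads scaled by transcript length and depth). The study examined zc3h8-/- mutants and wild types at both stages, with 1 library for each of the 4 groups and with the strain given as ABGO throughout. All 4 groups carried the transgene Tg(lfabp:Dendra2-NTR), in which a liver fatty acid binding protein promoter marks hepatocytes with the fluorescent protein Dendra2 fused to a nitroreductase. Livers were dissected and dissociated with trypsin, cells were collected by flow sorting, and full-length cDNA was amplified by the Smart-seq2 protocol. The number of larvae behind a library, the hour of collection and the feeding of the larvae are not stated in the sources used here. Since each stage was 1 library, no test, standard deviation or p-value applies to any gene. Some ratios are given with 95% counting intervals, which were computed from the reads behind each value (exact binomial interval of the ratio of the read counts). These intervals cover counting error only, because PCR reads without molecular identifiers are not independent molecules, and they say nothing of the spread between larvae.

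Hepatocytes make most plasma proteins, among them apolipoproteins, clotting factors, complement components and metal carriers, and pass them through the endoplasmic reticulum (ER) and the Golgi apparatus. They make cholesterol from acetyl-CoA by way of mevalonate, farnesyl diphosphate, squalene and lanosterol, under the control of the transcription factor SREBP2, and turn cholesterol into bile acids. In zebrafish the larval liver takes up these tasks while the yolk, the first source of lipid, is being used up and feeding begins.

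The reads of listed genes came to 35906266 at 5.5 dpf and 36964521 at 7.5 dpf, and 12319 and 9255 listed genes were above 0. The 10 most abundant genes took 32.2% and 33.6% of the reads. All 13 hepatocyte markers were above 1 RPKM in both libraries, with a summed level of 91603 RPKM at 5.5 dpf and 79946 RPKM at 7.5 dpf. Of the markers of other cells, all 8 of exocrine pancreas were above 1 RPKM at both stages, and their sum was 420 RPKM at 5.5 dpf and 1780 RPKM at 7.5 dpf. The 7 skin markers summed to 5077 and 9932 RPKM and the 9 muscle markers to 746 and 495 RPKM. Endothelial markers were at 0 RPKM at 5.5 dpf and summed to 0.256 RPKM at 7.5 dpf, endocrine pancreas markers summed to 0.0516 RPKM and to 0, and among 12 macrophage markers lgmn, a lysosomal protease that other cells also make, accounted for 134 of 136 RPKM at 7.5 dpf. The part of these other cells in the ratios below was not tested. In such bulk libraries fewer cells of a type and less RNA per cell cannot be told apart.

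A large set of genes reached 10 CPM in 1 wild-type library and stood near 0 in the other, and these lie outside the 3747. At 5.5 dpf alone 1899 genes reached the minimum, and 1105 of these had 3 reads or fewer at 7.5 dpf. At 7.5 dpf alone 1579 genes reached it, and 497 of these had 3 reads or fewer at 5.5 dpf, where 3 reads correspond to 0.0835 CPM at 5.5 dpf and 0.0812 CPM at 7.5 dpf. The share was lower at higher abundance. Of genes at 10 to 20 CPM at 5.5 dpf, 36.1% had 3 reads or fewer at 7.5 dpf, against 18.6% at 20 to 50 CPM, 5.70% at 50 to 100 CPM and 0.763% of the 1049 genes at 100 CPM or more. In the other direction the share was 18% at 10 to 20 CPM and 0.0917% of 1090 genes at 100 CPM or more. Genes that every cell uses were among those near 0, with unequal shares by list. Of 18 aminoacyl-tRNA synthetases at the minimum at 5.5 dpf, 7 (38.9%) had 3 reads or fewer at 7.5 dpf, beside 19.6% over all genes. Among the 7 was rars1, which charges the arginine tRNA and had 97.9 CPM at 5.5 dpf and 1 read at 7.5 dpf. The counts were 13 of 56 splicing factors, 4 of 39 proteasome subunits and 1 of 68 nuclear respiratory chain and ATP synthase genes. None of 80 cytosolic ribosomal protein genes was so low, and 59 of those were at 100 CPM or more at 5.5 dpf. A gene with no read is given below as listed at 0. Where such a gene is counted as higher or lower, its value was set at 3 reads, and the part of low abundance in these values was not tested. In the mutant pair, 18.1% of genes at the minimum at 5.5 dpf had 3 reads or fewer at 7.5 dpf, beside 19.6% in wild type. The pairs differed in the other direction. Of genes at the minimum at 7.5 dpf, 21.9% in the mutant pair had 3 reads or fewer at 5.5 dpf, beside 9.33% in wild type.

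**Figure D1:**
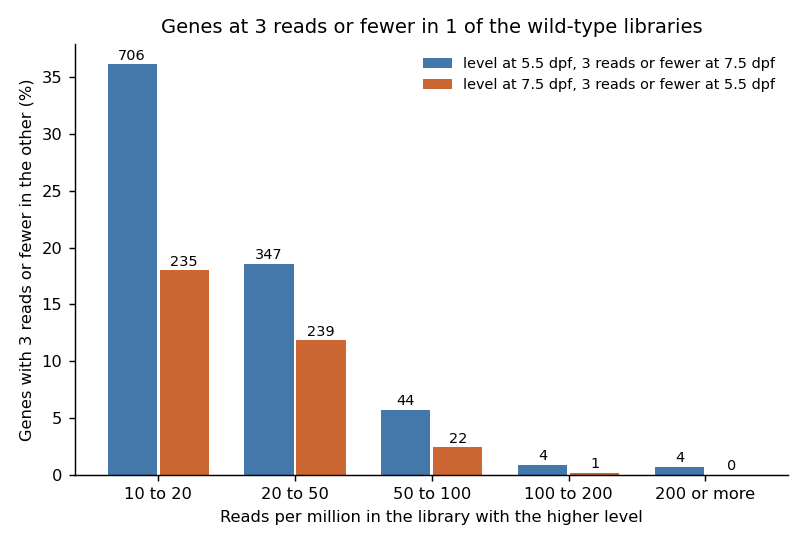
Share of genes (%) with 3 reads or fewer in 1 wild-type library (y axis), by their level in the other library in CPM (x axis), with the number of such genes above each bar. Of genes between 10 and 20 CPM at 5.5 dpf 706 stood at 3 reads or fewer at 7.5 dpf, and at 200 CPM or more only 4 did.

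Over the 3747 genes kept, which held 93.2% of the reads at 5.5 dpf and 94.7% at 7.5 dpf, levels at the stages followed each other across genes with a Pearson r of 0.83 on log2 CPM, a description over genes that share the same 2 libraries. The median log2 ratio of 7.5 over 5.5 dpf was 0.09, with quartiles at -0.54 and 0.78. A ratio of 2-fold or more was called higher or lower by its size alone. By that rule 713 genes, or 19.0%, were higher at 7.5 dpf and 474, or 12.7%, were lower, while 2560 (68.3%) lay within 2-fold. These shares are the background for every count of kept list members below. At 4-fold the counts were 155 higher and 75 lower, and at 8-fold 15 higher and 13 lower. When the 7225 genes that reached the minimum in either library were counted, with values under 3 reads set at 3 reads, 2171 (30.0%) were higher and 2280 (31.6%) were lower. The lower genes had a median of 75.3 CPM at 5.5 dpf and the higher genes one of 20.7 CPM, which the minimum fixes in part, since a lower gene had to start at 20 CPM or more. Transcript length moved with the ratio: the median log2 ratio was -0.12 in the shortest 750 genes and 0.33 in the longest 750, and the part of length in the results below was not tested. Just inside the minimum lay flnc (ENSDARG00000018566, 362 and 370 reads), capn9 (360 and 2180 reads) and birc2 (830 and 371 reads), and just outside it cdca4, med23 and cpb1, each with 359 reads at 5.5 dpf.

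**Figure D2:**
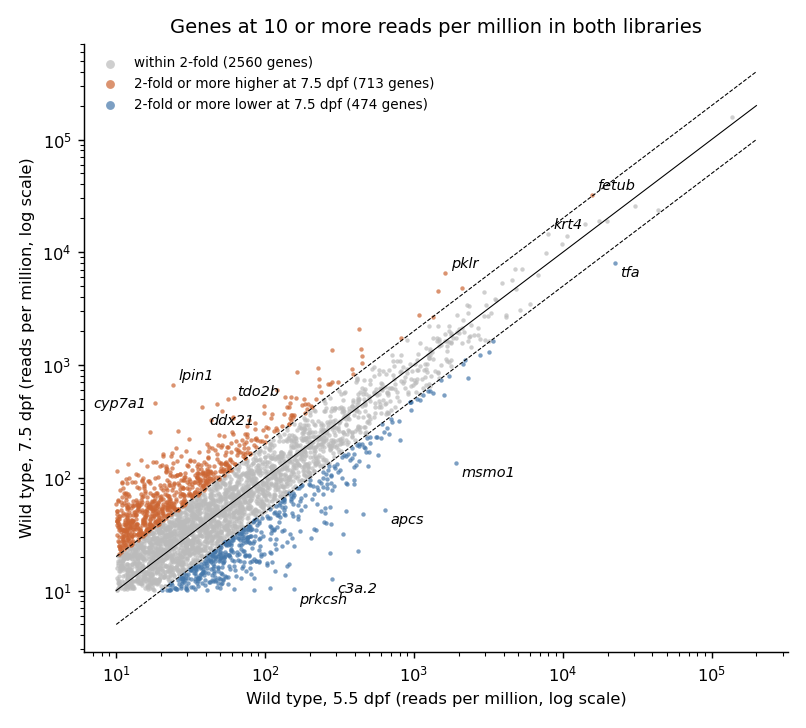
CPM of the 3747 genes at 5.5 dpf (x axis) and 7.5 dpf (y axis), both on log scales, in wild-type hepatocytes; the solid line marks equal levels and the dashed lines 2-fold. The 713 higher genes lie above the upper dashed line, up to lpin1 at 24 and 663 CPM, and the 474 lower genes below the lower one, down to c3a.2 at 283 and 12.7 CPM.

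The widest ratio toward 7.5 dpf belonged to lpin1, whose product is a phosphatidate phosphatase of triglyceride synthesis. Its level was 24 CPM at 5.5 dpf and 663 CPM at 7.5 dpf, 27.6-fold higher (interval 25.8 to 29.6). The gene cyp7a1, which encodes the rate-limiting enzyme of bile acid synthesis, stood at 18.1 and 464 CPM, 25.6-fold higher (23.7 to 27.8). Both genes were below the median level of 43.7 CPM of kept genes at 5.5 dpf and far above the median of 50.2 CPM at 7.5 dpf. Next came the chymotrypsinogen gene ctrb.3, a pancreatic enzyme, at 16.8 and 256 CPM. The nucleolar RNA helicase gene ddx21 followed at 37.5 and 428 CPM (11.4-fold), and f9a, a clotting factor gene, at 10.1 and 114 CPM (11.3-fold). Several others serve the uptake or use of lipids and amino acids. The amino acid transporter heavy chain gene slc3a2 had 11.9 and 132 CPM, and sptlc2, a subunit of the first enzyme of sphingolipid synthesis, 14.7 and 145 CPM (9.89-fold). The nuclear receptor gene nr5a5 had 25.9 and 262 CPM (10.1-fold). The tryptophan dioxygenase gene tdo2b had 56.2 and 497 CPM, 8.84-fold higher. The list of 12 closed with the chymotrypsinogen gene ctrb.1 (47.3 and 452 CPM), the kinase gene bmp2k (11.7 and 98.0 CPM) and the adaptor gene crk (10.9 and 91.0 CPM).

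The widest ratio toward 5.5 dpf was that of c3a.2, a copy of the central complement component, with 283 CPM at 5.5 dpf and 12.7 CPM at 7.5 dpf, 22.3-fold lower at the later stage (20.3 to 24.5). Zebrafish carry several close copies of this gene, so that the split of reads among them is uncertain. The copy c3a.3 lay on the other side, with 175 and 276 CPM, within 2-fold. Genes of protein glycosylation in the ER came next. STT3A (ENSDARG00000053832), a catalytic subunit of the oligosaccharyltransferase, had 419 and 22.3 CPM, 18.8-fold lower, and prkcsh, a subunit of the glucosidase that trims new glycans, 156 and 10.3 CPM, 15.2-fold lower. Sterol synthesis gave 3 of the 12 lowest ratios, msmo1, the cytoplasmic hydroxymethylglutaryl-CoA synthase (ENSDARG00000052738) and acat2. Mitochondrial and metabolic genes made up most of the others. The carrier-like protein gene mtch2 of the outer mitochondrial membrane had 271 and 21.6 CPM, pyruvate carboxylase (ENSDARG00000000972), which feeds gluconeogenesis, 331 and 31.8 CPM, and h6pd, which makes NADPH in the ER, 137 and 13.8 CPM. The pentraxin gene apcs had 638 and 51.8 CPM, 12.3-fold lower, and cyp1d1, a cytochrome P450 gene, 108 and 10.6 CPM. The histone gene h3f3b.1 closed the list at 84.6 and 10.1 CPM.

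Genes of sterol synthesis were lower at 7.5 dpf from the first steps of the pathway to the last. Of its 24 genes, 7 passed the minimum in both libraries, 5 of them were lower and none was higher, with a median log2 ratio of -2.96 beside 0.09 over all genes kept. Counting the 19 that reached the minimum in either library, 17 were lower and none was higher, beside 31.6% lower over all such genes. The summed level of the pathway was 5952 CPM at 5.5 dpf and 357 CPM at 7.5 dpf. Over all genes, 8 of the 1049 at 100 CPM or more at 5.5 dpf had 3 reads or fewer at 7.5 dpf. They were fdps, sc5d, tm7sf2, ebp and sqle of sterol synthesis, hsp90b1 and ERO1-like protein beta (ENSDARG00000030004) of ER folding, and endonuclease domain-containing 1 protein (ENSDARG00000070242).

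Early steps of the pathway make mevalonate and farnesyl diphosphate. The cytoplasmic hydroxymethylglutaryl-CoA synthase (ENSDARG00000052738) had 458 CPM at 5.5 dpf and 47.3 CPM at 7.5 dpf, 9.68-fold lower (9.21 to 10.2). The thiolase gene acat2, the entry step, had 141 and 16.6 CPM, 8.52-fold lower. Mevalonate kinase (mvk) had 64.1 and 0.0541 CPM, and idi1, which makes the activated isoprene unit, 183 and 0.298 CPM. The level of fdps, farnesyl diphosphate synthase, was 653 CPM at 5.5 dpf, and it was listed at 0 at 7.5 dpf. The phosphomevalonate kinase gene pmvk stood at nearly equal levels, with 24.6 and 23.9 CPM.

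Later steps close the ring and shape the sterol. The squalene epoxidase gene sqle had 123 CPM and lss, lanosterol synthase, 80.4 CPM at 5.5 dpf, and both were listed at 0 at 7.5 dpf. The lanosterol demethylase gene cyp51a1 had 867 CPM at 5.5 dpf, and 4 reads (0.108 CPM) at 7.5 dpf. The methylsterol oxidase gene msmo1 had 1907 and 136 CPM, 14-fold lower (13.6 to 14.4). Sterol-4-alpha-carboxylate 3-dehydrogenase (ENSDARG00000057723) had 116 and 14.9 CPM and hsd17b7 150.5 and 8.55 CPM. At the end of the pathway 7-dehydrocholesterol reductase (ENSDARG00000015564) had 220.2 and 34.3 CPM, 6.41-fold lower, and sc5d (299 CPM), tm7sf2 and ebp (193 CPM each) were listed at 0 at 7.5 dpf. Per length, msmo1 was the highest of the pathway at both stages, with 523 and 37.3 RPKM. The pathway was also lower at 7.5 dpf in the mutant pair, which shares no library with the wild type: its summed level was 2153 and 112 RPKM in wild type and 781 and 182 RPKM in the mutant. There msmo1 had 418 and 31.3 CPM, and fdps 216 and 78 CPM. The gene idi1 lay on the other side there, with 26.5 and 75.8 CPM.

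**Figure D3:**
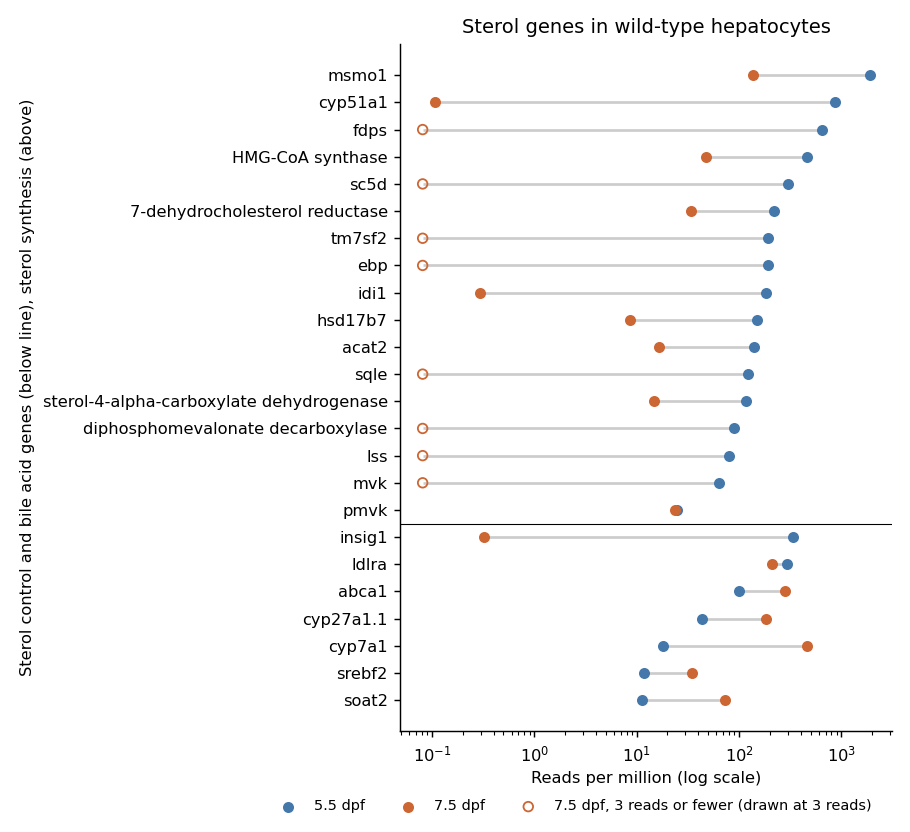
CPM (x axis, log scale) of 17 sterol synthesis genes (above the line) and 7 sterol control and bile acid genes (below it) at 5.5 and 7.5 dpf in wild-type hepatocytes; open circles mark 3 reads or fewer, drawn at 3 reads. All synthesis genes drawn but pmvk lie apart, with the 7.5 dpf value on the left, whereas abca1, cyp27a1.1, cyp7a1, srebf2 and soat2 have theirs on the right.

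Genes that respond to sterol supply or use cholesterol lay on both sides, with 6 control genes kept, 3 higher and none lower, and a median log2 ratio of 0.54. The gene insig1, whose product holds SREBP2 in the ER when sterols are plentiful and which SREBP2 itself activates, had 339 CPM at 5.5 dpf and 0.325 CPM at 7.5 dpf. The factor's own gene srebf2 had 11.7 and 34.7 CPM, 2.96-fold higher. The low-density lipoprotein receptor gene ldlra, another SREBP2 target, had 297 and 212 CPM, within 2-fold. The esterifying enzyme gene soat2 had 11.4 and 73.4 CPM, 6.46-fold higher, although its counterpart soat1 had 15.7 and 0.162 CPM. The exporter gene abca1 had 101 and 282 CPM, 2.80-fold higher. When genes at the minimum in either library were counted, insig1 and soat1 entered and the median of the control list changed sign.

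Bile acid genes were mixed, with 3 of 9 kept members higher, 1 lower and a median of 0.38. Beside cyp7a1, the side-chain enzyme gene cyp27a1.1 had 44.0 and 183 CPM, 4.15-fold higher. The export pump gene abcc2 had 311 and 701 CPM, 2.25-fold higher, while the bile salt pump gene abcb11 had 156 and 204 CPM. Other enzymes of the route, cyp8b1 (262 and 313 CPM) and hsd3b7 (127 and 69.5 CPM), were within 2-fold. The sterol carrier gene scp2a was 2.17-fold lower, with 1276 and 588 CPM. The bile acid receptor gene nr1h4 had 87.8 and 60.1 CPM.

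Genes for folding in the ER were also mostly lower at 7.5 dpf. Of 41 genes, 19 were kept, 11 of them lower and 1 higher, beside 12.7% and 19.0% over all genes kept. Their median log2 ratio was -1.28. Of the 32 at the minimum in either library 23 were lower, beside 31.6% over all such genes. Of 31 at the minimum at 5.5 dpf, 10 (32.3%) had 3 reads or fewer at 7.5 dpf, beside 19.6% over all genes. The summed level was 6289 CPM at 5.5 dpf and 2091 CPM at 7.5 dpf. The main chaperone of the ER, described as 78 kDa glucose-regulated protein (ENSDARG00000004665), had 804 and 218 CPM, 3.69-fold lower, and its partner hsp90b1 had 307 CPM at 5.5 dpf and was listed at 0 at 7.5 dpf. The lectin chaperone calr had 213 and 35 CPM, 6.08-fold lower, but its membrane-bound relative canx had 325 and 203 CPM, within 2-fold. The isomerase genes pdia6 (277 and 39 CPM) and pdia4 (166 and 43.3 CPM) were 7.09-fold and 3.83-fold lower. The proline isomerase gene ppib had 1598 and 544 CPM. Against these, pdia7 was 2.2-fold higher, with 44.8 and 98.6 CPM. In the mutant pair the summed level of the list was 3937 and 2561 RPKM, and in wild type 3453 and 1183 RPKM.

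Attachment of N-linked glycans lay on the same side: of 10 kept genes 5 were lower and none was higher, with a median of -0.88. Over all genes kept 12.7% were lower and 19.0% higher. Of 14 at the minimum in either library 7 were lower and 2 higher, beside 31.6% and 30.0% over all such genes. Among subunits of the oligosaccharyltransferase beside STT3A, ddost (395 and 87.2 CPM) 4.53-fold, and the Dolichyl-diphosphooligosaccharide--protein glycosyltransferase subunit DAD1 (ENSDARG00000059791, 329 and 100.3 CPM) 3.29-fold lower. The subunit genes rpn2 (712 and 314 CPM) and rpn1 (326 and 224 CPM) were 2.27-fold and 1.46-fold lower. Subunits of the same complex thus had unequal ratios.

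Of 17 kept genes of translocation into the ER 4 were lower and 3 higher (median -0.42), beside 12.7% and 19.0% over all genes kept. Of 25 at the minimum in either library 8 were lower and 5 higher (median -0.55), beside 31.6% and 30.0% over all such genes. The translocon-associated gene ssr2 had 488 and 127 CPM, 3.84-fold lower, and the signal recognition particle gene srp72 27.3 and 95.2 CPM, 3.49-fold higher. Of 23 kept genes of ER to Golgi traffic 7 were lower and 2 higher (median -0.39), and of 38 at the minimum in either library 19 were lower and 5 higher (median -1.09), beside 31.6% lower over all such genes. The retrieval receptor gene kdelr2a, which returns escaped chaperones to the ER, had 258 and 39.8 CPM, 6.48-fold lower, and the coat gene sec13 107 and 22.1 CPM, 4.85-fold lower, whereas the coat gene sec23b had 108 and 194 CPM. Among regulators of the unfolded protein response none of 12 kept genes was lower and 2 were higher. The transcription factor gene xbp1 had 605 and 617 CPM and atf4b 315 and 309 CPM. The stress genes ddit3 (186 and 372 CPM) and chac1 (231 and 753 CPM) were 2.0-fold and 3.26-fold higher. Another 7 genes of this list reached the minimum at 5.5 dpf alone. All 7 were lower, as were 1806 of the 1899 such genes over all lists, which the minimum largely fixes. Over the 19 at the minimum in either library 2 were higher and 7 lower, beside 30.0% and 31.6% over all such genes. The 7 include the sensors: atf6 had 104 and 6.44 CPM, ern1 24.5 and 0.730 CPM, and eif2ak3 29.5 and 4.14 CPM.

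**Figure D4:**
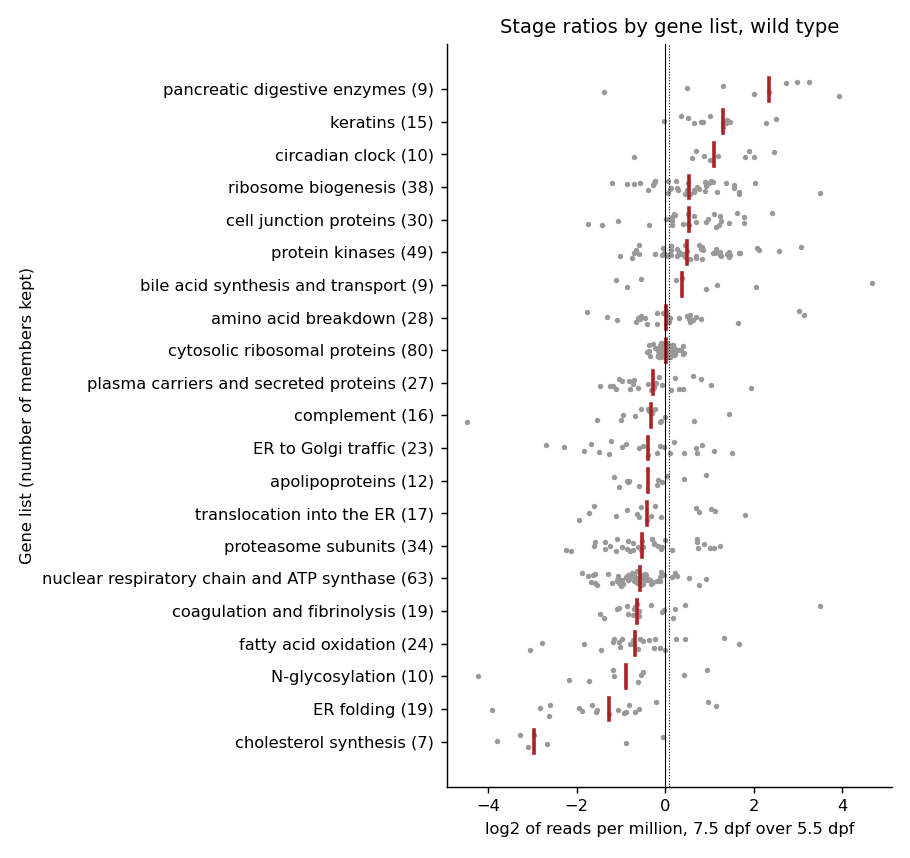
log2 ratios of 7.5 over 5.5 dpf (x axis) of the kept members of 21 gene lists (y axis, number of members in brackets) in wild-type hepatocytes; each point is a gene, red bars are medians, the solid line marks 0 and the dotted line the median of all genes at 0.09. Medians run from -2.96 for cholesterol synthesis to 2.34 for pancreatic digestive enzymes, and the 80 cytosolic ribosomal protein genes lie in a narrow band around 0.01.

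Genes of secreted plasma proteins had unequal ratios. Of 27 kept plasma carriers and other secreted proteins 2 were higher and 5 lower, with a median of -0.27. The transferrin gene tfa, the main iron carrier, had 22447 CPM at 5.5 dpf and 8031 CPM at 7.5 dpf, 2.80-fold lower. The fetuin gene fetub went the other way, with 15625 and 32005 CPM, 2.05-fold higher, and its relative ahsg1 had 75.2 and 290.3 CPM, 3.86-fold higher. Per length, fetub stood at 9850 and 20186 RPKM and tfa at 9281 and 3322 RPKM, so that their levels were close at 5.5 dpf and far apart at 7.5 dpf. The hepatocyte fatty acid carrier gene fabp10a had 10644 and 14043 CPM.

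Apolipoprotein genes had 2 of 12 kept members lower, none higher, and a median of -0.39. The gene apoa2 had 43856 and 23946 CPM, 1.83-fold lower, and apom 2771 and 1234 CPM, 2.25-fold lower. A further abundant gene, Apolipoprotein A-I-2 (ENSDARG00000086583), has no symbol and is not in this list. It had 30338 and 25888 CPM, within 2-fold. Levels of apobb.1 (697 and 619.9 CPM) and apoeb (99.3 and 102 CPM) were nearly equal. Around the lipoproteins the genes were divided. The loading protein gene mttp had 63.1 CPM at 5.5 dpf and 6.38 CPM at 7.5 dpf. Lipoprotein lipase (lpl) had 442 and 1380.2 CPM, 3.12-fold higher, and the transfer protein gene cetp 229 and 657 CPM, 2.87-fold higher. The lipase inhibitor gene angptl4 had 484 and 226 CPM, 2.14-fold lower.

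Clotting genes lay mostly on the lower side, with 4 of 19 kept members lower, 1 higher and a median of -0.63. Over all genes kept 12.7% were lower and 19.0% higher. The fibrinogen chains fgb (1156 and 547 CPM), fgg (4123 and 2656 CPM) and fga (1184 and 787 CPM) were 2.11-fold, 1.55-fold and 1.5-fold lower. Factor V (f5) had 172 and 62.4 CPM. The prothrombin gene f2 had 1767 and 982 CPM. The higher member was f9a. Complement genes had a median of -0.33, with c3a.2 and c7b, which had 35.3 and 12.1 CPM, lower of 16 kept members, and cfd, the activating protease of the alternative pathway, 2.73-fold higher at 182 and 498 CPM. In the acute phase list 3 of 9 kept members were lower and none was higher, with apcs in first place, and the pentraxin gene crp3 had 146 and 72.6 CPM.

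In glycolysis 2 of 11 kept genes were higher and 2 lower, with a median of -0.25. The liver pyruvate kinase gene pklr had 1623 CPM at 5.5 dpf and 6538 CPM at 7.5 dpf, 4.03-fold higher (3.99 to 4.07). The glyceraldehyde phosphate dehydrogenase gene gapdh had 17450.2 and 18982 CPM. Glucokinase (gck) had 27.9 CPM at 5.5 dpf and was listed at 0 at 7.5 dpf. Of 10 kept genes of gluconeogenesis and glycogen none was higher and 1 was lower, the glycogen phosphorylase gene pygl (599 and 224 CPM). The median log2 ratio of the list was -0.56, with 7 of the 10 genes below 0 and 3 above it. This list, built on symbols, does not hold Pyruvate carboxylase, mitochondrial (ENSDARG00000000972), a gluconeogenic enzyme that was 10.4-fold lower, as given above. Among the 3 above 0, the gluconeogenic gene pck1 had 1262 and 2215 CPM and the glycogen synthase gene gys2 339 and 568 CPM.

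Fatty acid oxidation had 8 of 24 kept genes lower, 2 higher and a median of -0.67, with 20 of the 24 below 0. Over all genes kept 12.7% were lower and 19.0% higher. The mitochondrial trifunctional subunit gene hadha had 203 and 29.3 CPM, 6.93-fold lower, the dienoyl-CoA reductase gene decr1 144 and 17.3 CPM, 8.36-fold lower, and hadh 575 and 160.4 CPM, 3.58-fold lower. The dehydrogenase gene acadm had 985 and 668 CPM. The higher members were cpt1b, which loads fatty acids into mitochondria (35.5 and 89.4 CPM), and pdk2 (ENSDARG00000059054), which restrains pyruvate oxidation (85.4 and 272 CPM). Among lipid storage genes plin2, which coats lipid droplets, was 4.44-fold lower (93.4 and 21.0 CPM), opposite to lpin1.

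Amino acid breakdown had 3 of 28 kept genes higher and 3 lower, with a median of 0.02, and the higher ones were wide. The tyrosine aminotransferase gene tat had 61.8 and 505 CPM, 8.17-fold higher (7.82 to 8.55), the phenylalanine hydroxylase gene pah 161 and 506 CPM, 3.15-fold higher, and tdo2b is given above. In the mutant pair tat had 74.7 and 339 CPM and tdo2b 40.3 and 142 CPM. Later steps of the tryptophan route were lower, with kmo at 211 and 85.1 CPM and haao at 414 and 194 CPM. The arginase gene arg2 had 226 and 934 CPM, 4.12-fold higher. In the folate and choline routes mthfd1 (ENSDARG00000040492, 274 and 55.5 CPM), sardh (90.7 and 22.9 CPM) and dmgdh (135 and 34.6 CPM) were 4.93-fold, 3.96-fold and 3.89-fold lower. In the methionine and one-carbon list 4 of 16 kept genes were lower, and aldh1l1 was the higher one, with 279.9 and 701 CPM.

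Detoxifying genes were balanced, with 4 of 31 kept cytochrome P450 genes higher and 3 lower (median 0.01). The aryl hydrocarbon receptor gene ahr2 had 10.2 and 44.2 CPM, and the glutathione transferase gene gsta.2 25.6 and 139.6 CPM, 5.46-fold higher. The sulfotransferase gene sult1st6 had 292 and 85.1 CPM, 3.43-fold lower. Of 25 kept antioxidant genes 6 were higher and 6 lower. The ER peroxiredoxin gene prdx4 had 357 and 87.5 CPM and the superoxide dismutase gene sod1 1528 and 734 CPM. The iron exporter gene slc40a1, on which release of iron to the plasma depends, had 156 and 24.6 CPM, 6.35-fold lower, and tfa is given above.

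Nuclear genes of the respiratory chain and ATP synthase were mostly lower by a small ratio. Of 63 kept genes 15 were lower and none was higher, beside 12.7% and 19.0% over all genes kept. Of 72 at the minimum in either library 20 were lower and 4 higher (median -0.60), beside 31.6% and 30.0% over all such genes. Of the 63 kept genes, 57 lay below 0, and the median was -0.57. The median transcript length of the 63 was 0.84 kb, against 2.03 kb over all genes kept, and the part of length was not tested. The ATP synthase ring gene atp5mc1 had 2311 and 767 CPM, 3.01-fold lower, the complex II gene sdha 214 and 71.7 CPM, and the cytochrome oxidase gene cox6b1 166 and 45.4 CPM, 3.67-fold lower. A gene on the other side was ndufv1, with 335 and 489.6 CPM, within 2-fold. The 13 protein genes of the mitochondrial genome had a median of -0.38, and their summed level was 57046 CPM at 5.5 dpf and 57407 CPM at 7.5 dpf. In that set mt-nd5 had 3207 and 1304 CPM and mt-co2 2340.0 and 3312 CPM. In the mutant pair 30 of 62 of the nuclear genes that passed there too were lower at 7.5 dpf, beside 19.2% of the 2607 genes at the minimum in all 4 libraries.

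Ribosomal protein genes were at nearly equal levels, while ratios varied more among other genes of translation. Of 42 kept genes of translation initiation and elongation factors 4 were higher and 5 lower, with a median of 0.008. None of 80 kept cytosolic ribosomal protein genes reached 2-fold, from rpl10 at 2109 and 1577 CPM to rpl22 at 40.2 and 53.9 CPM, and their summed level was 52113 and 52776 CPM. Genes of ribosome assembly had a median of 0.53, with 10 of 38 kept members higher and 1 lower, beside 19.0% and 12.7% over all genes kept. Of 73 at the minimum in either library 21 were higher and 22 lower, beside 30.0% and 31.6% over all such genes. Beside ddx21, the small-subunit processing gene rrp9 had 27 and 78.9 CPM and the nucleolin gene ncl 183 and 342 CPM, while the rRNA methyltransferase gene nop2 had 33.1 and 14.4 CPM. Among aminoacyl-tRNA synthetases 3 of 8 kept genes were lower and 1 was higher, beside 12.7% lower over all genes kept. Of 19 at the minimum in either library 13 were lower, beside 31.6% over all such genes. The threonine enzyme gene tars1 had 48.1 and 14.8 CPM. Proteasome genes had 9 of 34 kept members lower and 3 higher (median -0.53), beside 12.7% and 19.0% over all genes kept. Of 39 at the minimum in either library 14 were lower and 3 higher, beside 31.6% and 30.0% over all such genes. The subunit gene psmc5 had 151 and 49.2 CPM and psmd3 40.4 and 95.0 CPM. The median transcript length of the kept ribosomal protein genes was 1.06 kb and that of the ribosome assembly genes 2.0 kb, against 2.03 kb over all genes kept.

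Clock genes were mostly higher among those kept. Of 10 kept, 6 were higher and none was lower, beside 19.0% and 12.7% over all genes kept. The median was 1.11. The period genes per2 (18.2 and 99.6 CPM) and per1 (28.8 and 101 CPM), whose products close the negative loop of the clock, were 5.48-fold and 3.52-fold higher. The output factor gene dbpb had 13.8 and 51.3 CPM, and nr1d1, which represses bmal1, 16.8 and 38.5 CPM. Of the positive arm, clock had 14.5 CPM at 5.5 dpf and was listed at 0 at 7.5 dpf. The gene bmal1 had 15.6 CPM at 5.5 dpf and 0.0812 CPM at 7.5 dpf. Such values were common at that level. Of all genes at 10 to 20 CPM at 5.5 dpf, 36.1% had 3 reads or fewer at 7.5 dpf. Counted over the 22 clock genes at the minimum in either library, 9 were higher and 9 lower, beside 30.0% and 31.6% over all such genes. Since the hour of collection is not stated in the labels, stage and time of day cannot be told apart. The glucocorticoid-responsive factor genes klf9 (22.8 and 91.4 CPM) and klf15 (64.0 and 181 CPM) were 4.02-fold and 2.83-fold higher, and the receptor gene nr3c1 had 57.5 and 25.8 CPM.

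Of 16 kept liver transcription factor genes 3 were higher and 1 lower, beside 19.0% and 12.7% over all genes kept. Of 22 at the minimum in either library 7 were higher and 2 lower, beside 30.0% and 31.6% over all such genes. Of the 22, 5 reached it at 7.5 dpf alone. The factor genes hnf4a (31.7 and 31.5 CPM) and cebpa (139.6 and 100.4 CPM) were within 2-fold. Growth factor genes had opposite members. The gene igf2b had 48.8 and 241 CPM, 4.93-fold higher, igf2a 79.0 and 30.4 CPM, 2.60-fold lower, and the growth hormone receptor gene ghrb 11.9 and 58.7 CPM. The cell cycle inhibitor gene cdkn1a had 27.3 and 157 CPM. Of 22 kept heat shock genes 4 were higher and 2 lower, beside 19.0% higher and 12.7% lower over all genes kept. The higher ones include the chaperone gene hsp70l (137 and 516 CPM) and the co-chaperone gene dnajb1b (75.8 and 246 CPM), and the lower ones were the co-chaperone gene bag3 (59 and 22.4 CPM) and the mitochondrial chaperonin gene hspd1 (448 and 199 CPM). Of 49 kept protein kinase genes 16 were higher and 1 was lower, beside 19.0% and 12.7% over all genes kept. Of 119 at the minimum in either library 45 were higher and 38 lower, beside 30.0% and 31.6% over all such genes. Examples are ulk2, an initiator of autophagy, at 21.4 and 128 CPM and araf at 20.4 and 10.1 CPM. Kept kinase genes were long, with a median of 3.44 kb.

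Enzymes of the exocrine pancreas, an organ that lies beside the liver, were higher at 7.5 dpf. Of 9 kept genes 7 were higher, with a median of 2.34, the highest of the lists with 5 or more kept genes, and the lower one was cpb2, which in mammals is a plasma carboxypeptidase made by the liver (277 and 106 CPM). Of the 20 at the minimum in either library 18 were higher, beside 30.0% over all such genes. The trypsinogen gene prss59.2 had 119.8 and 606 CPM, 5.06-fold higher, ela2 23.4 and 155 CPM, 6.62-fold higher, and prss59.1 74.5 and 105 CPM. The elastase gene cela1 had 5.6 and 243 CPM, amy2a 2.40 and 82.8 CPM, and the lipase gene cel was listed at 0 at 5.5 dpf and had 87.0 CPM at 7.5 dpf. The summed level of the 24 genes was 607 and 2475 RPKM in wild type, and 111 and 595 RPKM in the mutant pair.

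Keratin genes had 9 of 15 kept members higher and none lower, with a median of 1.31. Over all genes kept 19.0% were higher and 12.7% lower. The highest per length, krt4, a marker of surface skin cells, had 7903 and 14404 CPM, 1.82-fold higher. The genes krt91 (279.5 and 1353 CPM) and krt97 (61.0 and 347 CPM) were 4.84-fold and 5.68-fold higher. The keratin krt8 of simple epithelia, liver included, had 622 and 883 CPM and krt1-19e 1319.7 and 1299.6 CPM. Keratins summed to 6750 and 12819 RPKM in wild type and to 12904 and 11158 RPKM in the mutant pair. Genes of cell junctions had 10 of 30 kept members higher and 3 lower (median 0.53), with cldn3c at 19 and 101 CPM, Cadherin-1 (ENSDARG00000024371) at 47.3 and 162 CPM and tjp1b at 37.2 and 13.9 CPM. Biliary markers, of which 3 are keratins, summed to 724 and 1209 RPKM. Of 8 muscle markers at the minimum in either library 4 were kept, all within 2-fold, among them pvalb1 at 272 and 175 CPM. The other 4 were listed at 0 at 7.5 dpf, among them ckma, which had 61.7 CPM at 5.5 dpf. Over all genes at the minimum at 5.5 dpf, 984 of 5646 had 0 reads at 7.5 dpf. The part of pancreatic, skin and muscle transcripts in the results above was not tested.

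The mutant stage pair offered ratios from libraries that the wild-type pair does not share, although the genotype differs and it is no replicate. At the minimum in all 4 libraries were 2607 genes, and their log2 ratios had a Pearson r of 0.25 and a Spearman rho of 0.26 across genes. Of 407 genes higher in wild type, 127 (31.2%) were also higher in the mutant, beside 19.2% of all 2607, and 44 were lower. Of 363 genes lower in wild type 108 (29.8%) were also lower in the mutant, beside 19.2%, and 42 were higher. The shared higher genes included ddx21, tat, tdo2b and pklr. Shared lower genes included msmo1, with log2 ratios of -3.81 in wild type and -3.74 in the mutant, apcs with -3.62 and -2.45, h6pd with -3.31 and -3.26, and tfa with -1.48 and -2.38. In the mutant cyp7a1 had 7.92 and 49.3 CPM, below the minimum at 5.5 dpf. The ratio of lpin1, the widest in wild type, had no counterpart in the mutant, where it had 40.8 and 42.0 CPM. Nor had the 3 widest lower ratios, with mutant log2 ratios of 0.26 for c3a.2, -0.04 for the Dolichyl-diphosphooligosaccharide--protein glycosyltransferase subunit STT3A (ENSDARG00000053832) and 0.23 for prkcsh.

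**Figure D5:**
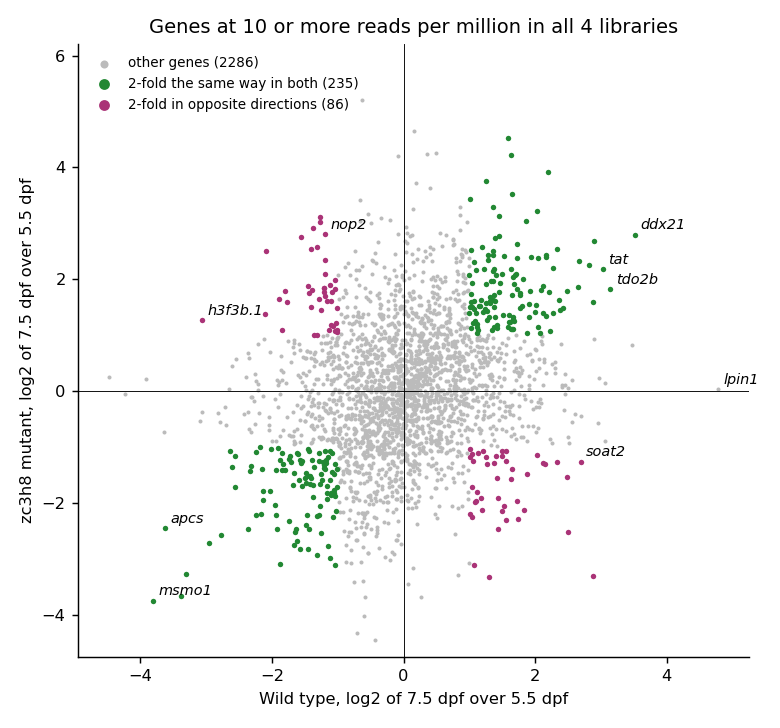
log2 ratios of 7.5 over 5.5 dpf in wild type (x axis) and in the zc3h8 mutant (y axis) for the 2607 genes at 10 CPM or more in all 4 libraries. In green are 235 genes 2-fold or more in the same direction in both, in purple 86 in opposite directions; msmo1 lies at the lower left and ddx21 at the upper right.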

How the data were processed

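Per the labels' protocols, dissected livers were dissociated, sorted by flow cytometry and made into Smart-seq2 libraries, 1 per group. DESeq 1.16.0, HTSeq 0.6.0, TopHat2 2.0.12 and Bowtie2 2.2.3 are named per the submitters' processing notes without a role. Build, annotation and strand setting are not stated in the sources used here. The stage table that the authors deposited holds 2 normalized columns, whose values behave as CPM (both sum closely to the same round total). A common step per library turned 100% of values of 1 read or more into whole reads within a tolerance of 0.01, and these reads gave the totals and the intervals. Smaller values, under 1 read, fill the place of 0 in the deposited columns and were taken as 0 reads. RPKM were used as the authors deposited them, for levels per length. In the deposited tables, 4 columns of per-sample values were not used.

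Genes with 10 CPM or more in both wild-type libraries were kept and the log2 ratio of 7.5 over 5.5 dpf was taken, with no pseudocount. A count test cannot be fitted with 1 library per group. Genes of the lists that reached the minimum in 1 library only were counted apart, with 3 reads or fewer set at 3. The 70 lists came from symbols and from patterns in the deposited Description. Gene symbols, read from the reference list by ID, matched 10683 of the 13572 listed and 3240 of the 3747 kept genes, 3570 kept genes had a Description, and 27 had neither. A listed symbol with a paralogue letter also took an ID whose symbol in capitals lacks that letter. IDs are given where a symbol is shared or missing, and reads of near-identical copies may have been split. The members and lists were chosen with earlier results of these data known.

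The named genes were the 12 highest and 12 lowest ratios among kept genes with a symbol or Description, up to 4 members of each list (highest, lowest and highest mean RPKM), the 10 highest mean RPKM, 6 genes each way with 3 reads or fewer in 1 library, and 3 on each side of the minimum. A few genes are not reported here. Other genes named for their place in a pathway were chosen after their values were seen. Python 3.11.15, pandas 2.3.3, numpy 2.4.6, scipy 1.17.1 and matplotlib 3.10.9 were used, and the scripts were tested on simulated data. The 9 alternatives changed the table, the scaling, the minimum or the pseudocount.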

Additional observations from a re-analysis of the deposited data

Results flagged for a closer look

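Some genes kept in all 4 libraries had stage ratios in opposite directions in the genotypes, and the difference was not tested, since each ratio rests on 1 library per stage. There were 44 genes 2-fold or more higher at 7.5 dpf in wild type and 2-fold or more lower in the mutant, and 42 the other way round. Among the genes named by the rule, 6 were lower in wild type and higher in the mutant. The nucleolar gene nop2 had log2 ratios of -1.20 in wild type and 2.80 in the mutant, and birc2, an inhibitor of cell death, -1.20 and 1.85. Lysine--tRNA ligase (ENSDARG00000044220) had -1.40 and 1.80, with 186 and 70.6 CPM in wild type and 130.4 and 455 CPM in the mutant. The matrix gene sparc had -1.26 and 1.45, h3f3b.1 had -3.07 and 1.27, and the helicase gene ddx23 -1.07 and 1.17. Another 4 were higher in wild type. The mitochondrial ribosomal protein gene zgc:171480 had 2.88 in wild type and -3.30 in the mutant, with 81.8 CPM in wild type and 12.6 CPM in the mutant at 7.5 dpf. The initiation factor gene eif4b had 1.27 and -1.30, soat2 2.69 and -1.26, and klf2b 1.56 and -1.25.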

How the results depend on the processing

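No paired analysis was possible because each group had 1 library, and for the same reason no replicate could be left out. The alternatives for the mutant pair were chosen after seeing the data. The choice of minimum moved the counts most. At 5 CPM in both libraries 1126 genes were higher and 203 were higher in both genotypes (127 at 10 CPM). At 50 CPM 138 were higher and 127 lower, the median of all genes was -0.037, 3 of the 24 genes with the widest ratios reached the minimum, and 25 and 47 genes were higher and lower in both genotypes. With 10 CPM in either library and a pseudocount of 1, 2121 were higher and 2239 lower, and 617 and 554 in both genotypes. With no filter 2964 were higher and 5034 lower, 967 and 1238 in both genotypes, and the median was -0.37. The share of higher genes among those called was 60.1% as reported, 52.1% at 50 CPM, 48.6% with the minimum in either library and 37.1% with no filter. The median of the sterol control list turned to -0.44 with the minimum in either library and to -0.61 with no filter, and that of the clock list to -0.68 with no filter. The cause was not tested beyond the construction of these settings, which add genes near 0 in 1 library. The RPKM table, median-ratio scaling (a shift of 0.09 on the log2 scale, with 640 higher and 538 lower), totals without the 10 most abundant genes, and pseudocounts of 1 and 5 kept each of these counts within 1.5 times and the median of all genes within 0.1. Of the results for list medians under the alternatives 461 stayed within 0.25 and 55 moved further without a change of sign in a median that had been 0.5 or more from 0. With 1 library a stage the spread between larvae is unknown, and the reads limit only what counting can resolve.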

Other observations

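Of 12 kept genes of inflammatory signalling 4 were higher at 7.5 dpf and none was lower, with a median log2 ratio of 0.40. Over all genes kept 19.0% were higher and 12.7% lower. The prostaglandin synthase gene ptgs2 has 2 IDs among them, with 22.9 and 64.6 CPM (ENSDARG00000010276) and 20.2 and 129 CPM (ENSDARG00000004539), and nfkbiab, a brake on NF-kB, had 208 and 422 CPM. The immune gene acod1 was listed at 0 at 5.5 dpf and had 25.9 CPM at 7.5 dpf, while relb had 44.8 and 2.54 CPM. Immediate early genes, which respond to handling and dissociation, had 5 of 28 kept members higher and 2 lower. The share of higher ones was close to the 19.0% over all genes kept, of which 12.7% were lower. The median log2 ratio of the 28 was 0.43, beside 0.09 over all genes kept, and 20 of the 28 lay above 0. The factor genes egr1 (1523 and 1495 CPM) and jun (1457 and 2199 CPM) were within 2-fold.

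Solute carriers had 6 of 16 kept genes higher and 1 lower, beside 19.0% and 12.7% over all genes kept. Of 42 at the minimum in either library 14 were higher and 18 lower (median -0.54), beside 30.0% and 31.6% over all such genes. The mitochondrial carrier gene slc25a47 had 21.9 and 119 CPM and the transporter gene slc22a2 41.5 and 148 CPM. Lysosomal genes had a median of 0.16 over 27 kept, with 2 lower and 3 higher: lgmn at 43.6 and 324 CPM, psap at 381 and 919.6 CPM and ctsd at 84.3 and 193 CPM. Of 49 genes of DNA replication and the cell cycle only 6 were kept. Of 16 at the minimum in either library 3 were higher and 8 lower (median -0.85), beside 30.0% and 31.6% over all such genes. The gene pcna had 87.3 and 42.9 CPM, whereas the helicase gene mcm4 had 4.04 and 48.7 CPM.

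The gene with the most reads in both libraries was ENSDARG00000080337, to which the tables used here give no symbol. It took 137616 CPM at 5.5 dpf and 158099 CPM at 7.5 dpf, and ENSDARG00000082753, also without a symbol, had 9910 and 11818 CPM.

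Among genes listed at 0 at 5.5 dpf the one with the highest CPM at 7.5 dpf was thoc5, a gene of mRNA export, listed at 0 and at 135 CPM. It was the only gene at 100 CPM or more at 7.5 dpf that stood under 1 CPM at 5.5 dpf. In the other direction 13 genes were at 100 CPM or more at 5.5 dpf and under 1 CPM at 7.5 dpf, of which 7 belonged to sterol synthesis. The transcription factor gene prdm1 (81.6 CPM) and pygo2 (80.9 CPM), a gene of Wnt signalling, were listed at 0 at 5.5 dpf, and cdc42ep5 had 1 read there and 87.2 CPM at 7.5 dpf.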
